A study of Mus musculus with 24 samples.

Results

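Glucose uptake, glycolysis, glycogen turnover, lactate exchange and the entry of pyruvate into the mitochondrion were followed through 32 genes in sorted astrocytes. The genes were listed by name and not by a rule on measured values, though with earlier results of these data known. All 32 were found among the 24394 genes of the deposited table. Glucose entry was represented by 3 genes (Slc2a1, Hk1, Hk2) and the upper part of glycolysis by 7 (Gpi1, Pfkl, Pfkm, Pfkp, Aldoa, Aldoc, Tpi1). The lower part had 6 (Gapdh, Pgk1, Pgam1, Eno1, Eno2, Pkm) and lactate handling 5 (Ldha, Ldhb, Slc16a1, Slc16a3, Slc16a7). Glycogen metabolism had 5 (Ugp2, Gys1, Gbe1, Pygb, Pygm) and the pyruvate dehydrogenase complex with its kinases 6 (Pdha1, Pdhb, Dlat, Pdk1, Pdk2, Pdk4).

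RNA was sequenced in bulk from mouse astrocytes isolated by fluorescence-activated sorting from 4 brain regions: thalamus, cortex, hippocampus and olfactory bulb. Each region had 3 libraries labelled KO (Nfix conditional knockout, cKO) and 3 labelled WT (control), giving 12 of each genotype and 24 in all. Nfix, a member of the NFI family of DNA-binding proteins, takes part in glial development, and the design asked how its loss alters astrocytes of different regions. For the Cre driver, the deleted exons, the age and sex of the mice and any batch, the sources used here give nothing, and no label ties a library to an animal, so p-values reflect the spread among these libraries, which could be technical.

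Astrocytes take up glucose through the transporter GLUT1, break it down to pyruvate and convert much of it to lactate, which leaves the cell through monocarboxylate transporters and can be used by neurons. They hold most of the glycogen of the brain, made by glycogen synthase and released by glycogen phosphorylase. Several steps exist as isoenzymes from separate genes. Aldolase C is a classical astrocyte marker, and the mix of lactate dehydrogenase subunits A and B, of phosphorylases and of pyruvate dehydrogenase kinases is known to differ between cell types.

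Promoter sequences of 4 of the 32 genes, Aldoc, Gys1, Ldhb and Pygb, are shown. They are given because NFI proteins bind the core TTGGC and because HIF, a regulator of many glycolytic genes, binds the core ACGTG or GCGTG. The RefSeq table for GRCm38 matched 31 of the 32 genes, with 45 promoters, and had none for Slc16a7. The 250 bases before each start are given 5′ to 3′ on the strand of the gene, with every match to TTGGC or ACGTG or GCGTG on either strand in capitals. GCCAA is TTGGC read on the other strand, CACGT is ACGTG and CACGC is GCGTG.
Aldoc, upstream start, chr11:78322823-78323072 (+): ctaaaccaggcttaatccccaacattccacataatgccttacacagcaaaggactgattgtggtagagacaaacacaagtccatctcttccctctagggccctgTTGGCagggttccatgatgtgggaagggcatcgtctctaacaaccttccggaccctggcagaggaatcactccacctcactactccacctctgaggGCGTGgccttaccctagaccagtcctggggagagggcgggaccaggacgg
Aldoc, downstream start, chr11:78323948-78324197 (+): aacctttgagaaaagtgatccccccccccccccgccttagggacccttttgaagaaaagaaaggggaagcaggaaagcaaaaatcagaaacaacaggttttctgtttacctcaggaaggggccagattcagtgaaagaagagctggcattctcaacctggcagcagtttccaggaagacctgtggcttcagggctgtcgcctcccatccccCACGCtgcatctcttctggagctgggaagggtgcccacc
Gys1, chr7:45434589-45434838 (+): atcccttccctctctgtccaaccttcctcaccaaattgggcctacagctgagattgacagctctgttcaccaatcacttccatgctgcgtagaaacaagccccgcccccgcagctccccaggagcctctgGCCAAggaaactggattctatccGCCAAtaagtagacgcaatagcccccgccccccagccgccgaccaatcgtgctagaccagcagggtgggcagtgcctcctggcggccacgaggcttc
Ldhb, chr6:142507958-142508207 (-): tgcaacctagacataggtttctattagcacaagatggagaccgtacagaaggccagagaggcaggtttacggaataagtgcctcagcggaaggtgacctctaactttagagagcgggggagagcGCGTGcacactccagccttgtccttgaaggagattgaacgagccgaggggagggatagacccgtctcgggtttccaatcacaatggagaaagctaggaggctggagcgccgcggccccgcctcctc
Pygb, chr2:150786546-150786795 (+): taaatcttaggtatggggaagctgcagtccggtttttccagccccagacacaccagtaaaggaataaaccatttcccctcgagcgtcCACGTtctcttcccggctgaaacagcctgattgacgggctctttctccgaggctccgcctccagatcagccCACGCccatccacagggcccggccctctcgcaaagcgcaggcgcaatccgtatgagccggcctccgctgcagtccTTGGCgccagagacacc

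The upstream Aldoc start had 1 TTGGC and 1 GCGTG, its downstream start 1 GCGTG, Gys1 2 TTGGC, Ldhb 1 GCGTG and Pygb 1 of each motif. Over the full windows of 300 bases, 28 of the 45 promoters held TTGGC on either strand (62.2%), against 46.7% of all 32851 promoters in the table. The palindromic NFI motif (TTGGC and, after 5 bases, GCCAA), which contains the core and is counted with it, was in 0 of the 45 and in 0.0365% of all. ACGTG was in 44.4% of the 45 and 19.6% of all, and GCGTG in 53.3% and 32.4%. ACGTG and GCGTG share 4 letters and were counted separately. These matches describe letters in a window, and promoters of 1 gene share sequence.

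Levels are normalized reads (reads over a library's size factor). Libraries held 2517487 to 25616591 reads in genes, and 3 reads, taken as the counting floor, corresponded to 1.18 to 29.7 normalized reads. Cortex WT replicate 3 and thalamus KO replicate 3 stood apart with 3871 and 2220 genes above 0, against 7509 to 11984 in the other 22 libraries. The 8 astrocyte markers (Aqp4, Aldh1l1, Slc1a2, Slc1a3, Gja1, Gfap, S100b, Sox9) summed to 17680 and 8828 CPM (reads scaled to a common library total) in those libraries and to 26487 to 85466 CPM in the other 22, and the 8 oligodendrocyte markers to 50908 and 76162 CPM, against 1407 to 28953 CPM. Of the 32 genes, 21 and 9 were above 0 in them and 27 to 31 in the others. Hippocampus WT replicates 2 and 3 shared their detected genes to an unusual degree: 0 of the 8364 genes that reached 50 normalized reads in 1 of them were at 0 in the other, whereas each of the 275 other pairs of libraries had at least 850 such genes. Where it matters, results are also given after averaging that pair, or after leaving out the 2 libraries poor in genes. Nfix itself was not lower in the libraries labelled KO, with 3009 to 11701 normalized reads against 2360 to 5117 in those labelled WT. A value per gene cannot separate deleted from remaining exons, so this checks the labels in part only, and KO and WT below stand for the labels.

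Aldoc had by far the highest level of the 32 genes. Per kilobase of merged exons its median over the 24 libraries was 18971 normalized reads, followed by Ldhb at 2810, Gapdh at 1757, Pygb at 1343, Ugp2 at 1223, Pgam1 at 1213 and Aldoa at 1018. Aldoc alone took 42.7 to 63.2% of the reads of the 32 genes in 22 libraries, with 17.0% in cortex WT replicate 3 and 55.5% in thalamus KO replicate 3. At the other end, Eno2, the neuronal enolase, and the lactate transporters Slc16a3 (MCT4) and Slc16a7 (MCT2) had a median of 0. Slc16a3 was above 0 in 3 libraries, with at most 3.33 normalized reads, and was not tested in any comparison. The next lowest medians per kilobase were those of Hk2 at 0.0613, Gys1 at 5.93 and Eno1 at 6.82 normalized reads.

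**Figure D1:**
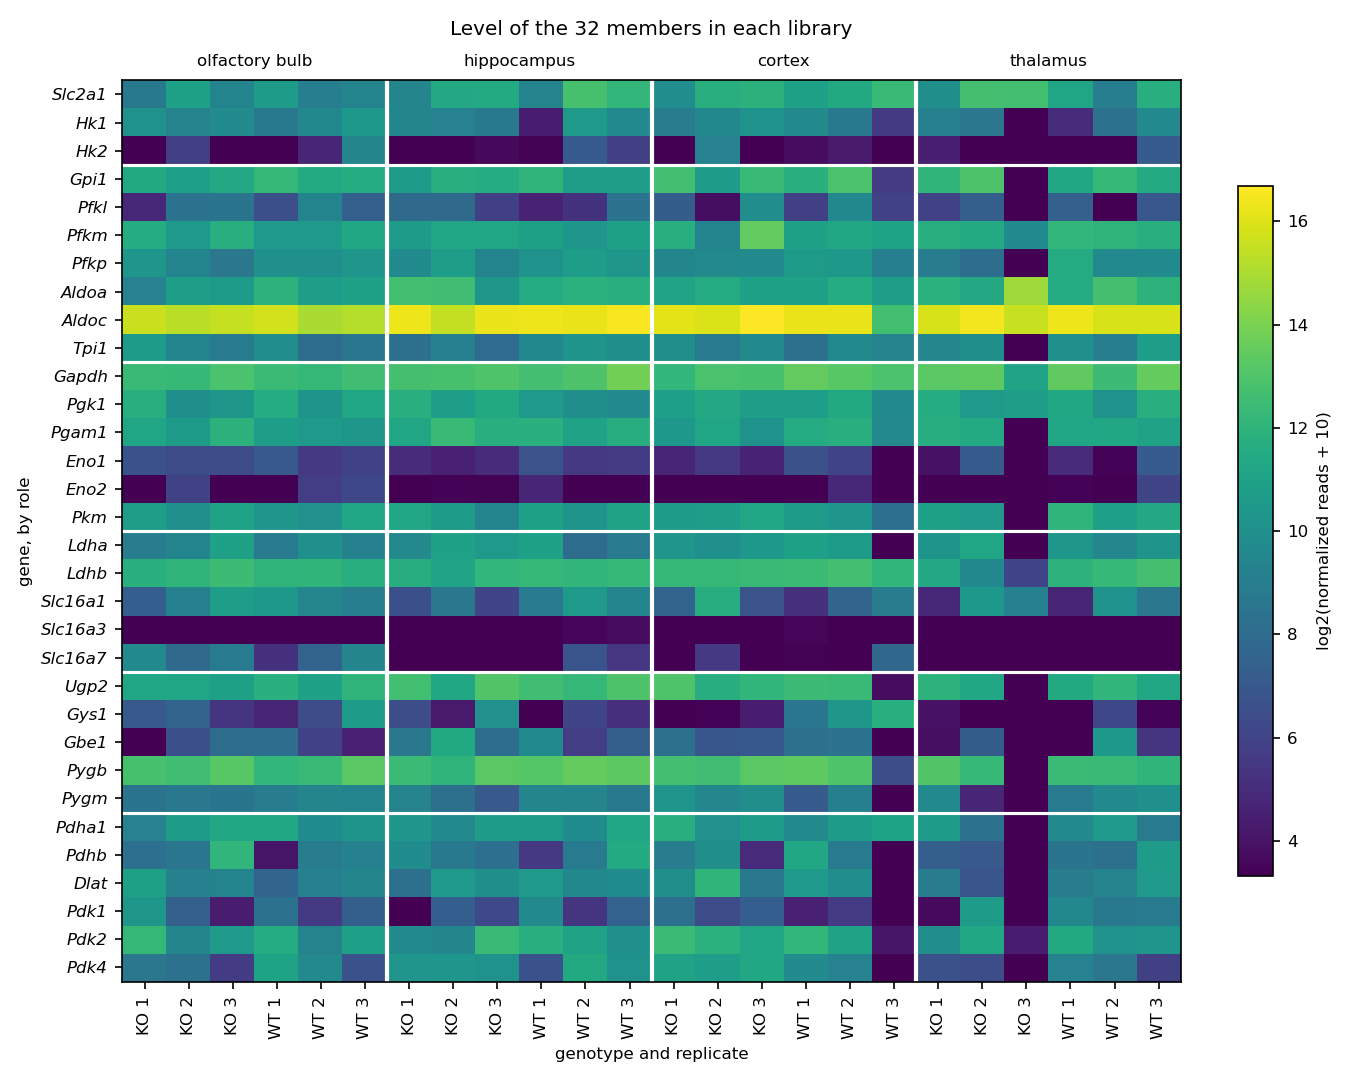
Level of each of the 32 genes in each of the 24 libraries as log2 of normalized reads plus 10, with genes grouped by role and libraries by region, KO left of WT. Aldoc is the brightest row, and thalamus KO replicate 3, with 9 of the 32 genes above 0, and cortex WT replicate 3, with 21, are the darkest columns.

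The genes differed widely in how well replicate libraries agreed. Over the 22 libraries that remain when the 2 poor in genes are left out, the SD of log2(value + 10) within groups was 0.33 for Aldoc, 0.38 for Gapdh, 0.42 for Pygb, 0.43 for Pgam1 and 0.46 for Ldhb. It was 1.91 for Gys1, 2.08 for Slc16a1, 2.17 for Pdhb and 2.19 for Pdk1. The median of the 31 genes that passed the filter on low values (at least 10 in at least 3 libraries) was 1.05, and that of all 12477 such genes was 1.66. With all 24 libraries the SD was 0.81 for Aldoc and 2.38 for Pygb, so comparisons that include the 2 libraries are the least precise.

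No gene of the 32 changed between KO and WT at an adjusted p under 0.05 in limma, in any region, in the average over regions or in the difference between regions. In the olfactory bulb 31 of the 32 genes were tested. Of these, 0 were called by limma, edgeR or DESeq2, and 0 had an unadjusted limma p under 0.05. Of all genes tested there, limma and edgeR called 0% and DESeq2 1.1%, and 4.01% had an unadjusted limma p under 0.05. In the hippocampus limma and edgeR tested 28 and DESeq2 32, and each called 0, with 2 at an unadjusted limma p under 0.05. Of all genes there, limma called 0.0109%, edgeR 0% and DESeq2 3.67%, and 6.27% had such a limma p. In the cortex limma and edgeR tested 28 and called 0, and DESeq2 tested 32 and called Gys1. An unadjusted limma p under 0.05 was found for 4. Of all genes there, limma called 0%, edgeR 0.105% and DESeq2 0.744%, and 2.44% had such a limma p. In the thalamus limma tested 27 and called 0, with 0 at an unadjusted p under 0.05, against 0% and 3.82% of all genes. edgeR and DESeq2 fitted 28 and 30 there and also called 0, but without thalamus WT replicate 1 and KO replicate 3. Of all genes, edgeR called 0.0113% there and DESeq2 6.13%. The edgeR and DESeq2 fits of the average and of the difference between regions lacked the same libraries. The average over regions tested 31 genes (32 by DESeq2), and each tool called 0. By limma 0 had an unadjusted p under 0.05 (2 by edgeR and 3 by DESeq2). Of all genes, limma and edgeR called 0% and DESeq2 7.18%, and 4.86% had such a p by limma. The difference between regions had 0 calls by each tool and 2 at an unadjusted limma p under 0.05. Of all genes, limma called 0%, edgeR 0.00743% and DESeq2 0.056%, and 4.58% had such a limma p. In bulk RNA a lower value can mean fewer cells of a type or less RNA in each cell, which cannot be told apart here.

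Differences are log2 of (value + 10), KO minus WT, and understate changes of low genes. In the olfactory bulb 17 of the 31 genes tested lay above 0 and 14 below, with a median of 0.07, against -0.04 over all genes, of which 48.4% lay above 0. Without KO replicate 3 its median was -0.11 and without WT replicate 2 it was -0.14. In the hippocampus 12 of 28 lay above and 16 below (median -0.34, all genes -0.16, 44.8% above 0), or 11 and 17 with the WT pair averaged (median -0.26, all genes -0.07, of which 0.0121% were called). Its median was -0.06 without KO replicate 2 and -0.03 without WT replicate 3. The cortex had 20 above and 8 below (median 0.56, all genes 0.49, 60.8% above 0), which became 12 and 16 without WT replicate 3 (median -0.10, all genes -0.29). The thalamus had 3 above and 24 below (median -2.25, all genes -1.31, 25.1% above 0), which became 12 and 15 without KO replicate 3 (median -0.20, all genes -0.18). Averaged over regions, 10 of 31 lay above 0 and 21 below (median -0.30, all genes -0.17, 40.3% above 0). This became 16 and 15 without thalamus KO replicate 3 (median 0.05, all genes -0.0022), 5 and 26 without cortex WT replicate 3 (median -0.61, all genes -0.33), and 10 and 21 without both (median -0.13, all genes -0.14). Leaving out 1 library thus turned the sign of the list's median in the olfactory bulb, in the cortex and on average. In the hippocampus and thalamus some omissions brought it closer to 0 and others moved it away. It was -0.36 without hippocampus WT replicate 2 and -3.29 without thalamus KO replicate 2.

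**Figure D2:**
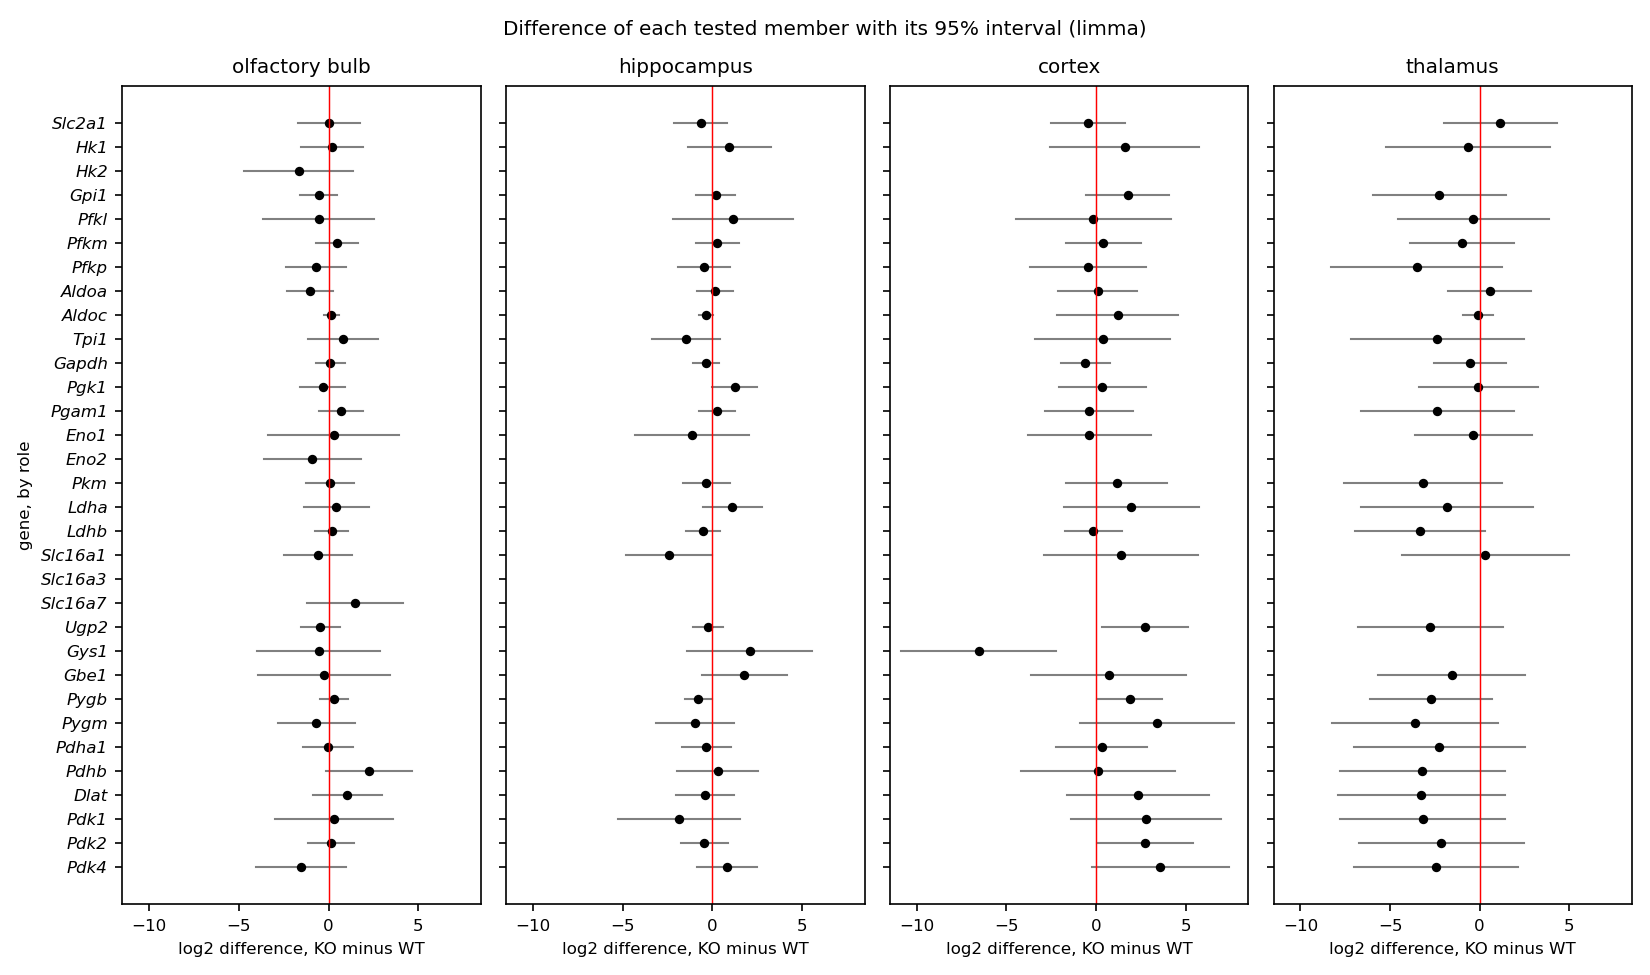
Log2 difference in normalized reads plus 10, KO minus WT, for each gene tested, by region, with bars for the 95% confidence interval of limma. Nearly all intervals cross 0, and those of the cortex and thalamus are the widest.

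Glucose entry showed no change that passed. Slc2a1, the transporter GLUT1 of astrocytes and brain endothelium, had 409, 2033 and 650 normalized reads in olfactory bulb KO libraries and 1653, 510 and 636 in WT, and 679, 2709 and 2920 in hippocampus KO against 628, 7210 and 4610 in WT. It had 918, 3504 and 3777 in cortex KO against 2029, 2811 and 5348 in WT, and 987, 6937 and 6334 in thalamus KO against 2311, 513 and 3283 in WT. KO and WT overlapped in all 4 regions, and within most groups the libraries spanned several-fold. The largest difference, in the thalamus, was 1.15 (SE 1.61, limma, adjusted p = 0.870), and 0.73 (SE 0.92, adjusted p = 0.974) without KO replicate 3. Hk1, the main brain hexokinase, which traps glucose as its phosphate, ranged from 0 to 1177 in KO libraries and from 11.0 to 1446 in WT, and its average difference was 0.52 (SE 0.83, limma, adjusted p = 0.996). Hk2, a hexokinase of muscle and growing cells, was at 0 in 12 of 24 libraries and highest in cortex KO replicate 2 (607) and olfactory bulb WT replicate 3 (682), where Hk1 took 55.2 and 66.8% of the reads of Hk1 and Hk2. In all other libraries with such reads it took at least 86.2%.

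In the upper part of glycolysis the phosphofructokinase of platelets, Pfkp, had the lowest unadjusted p of the 32 genes in the average over regions. Pfkp, which commits fructose phosphate to breakdown, had 1284, 649 and 384 normalized reads in olfactory bulb KO against 1042, 1040 and 1265 in WT, and 867, 1789 and 638 in hippocampus KO against 1155, 1705 and 1349 in WT. Cortex KO libraries had 683, 760 and 858 against 1567, 1393 and 537 in WT, and thalamus KO libraries 484, 279 and 0 against 2991, 799 and 853 in WT. Groups did not overlap in the thalamus, where every KO library was below every WT library, and overlapped elsewhere. Averaged over regions its difference was -1.28 (SE 0.72, limma, adjusted p = 0.971), and -0.97 (SE 0.44, adjusted p = 0.775) without the 2 libraries with few genes. Pfkm, the muscle-type subunit, took 42.9 to 100% of the reads of Pfkl, Pfkm and Pfkp, with 652 to 11313 normalized reads in KO and 1300 to 4656 in WT. Pfkl, the liver-type subunit, ranged from 0 to 920 in KO and from 0 to 732 in WT. Gpi1, the isomerase after hexokinase, was below every WT library in each olfactory bulb KO library (2740, 1869 and 2685 against 4859, 2882 and 3059), at -0.54 (SE 0.53, limma, adjusted p = 1.00).

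Aldoa, the ubiquitous aldolase, and Aldoc split the same sugar bisphosphate. Aldoa in the olfactory bulb had 590, 1714 and 1576 normalized reads in KO and 4035, 1697 and 1996 in WT, a difference of -1.03 (SE 0.66, limma, adjusted p = 1.00), which was -0.54 without KO replicate 1 and -0.65 without WT replicate 1. The groups overlapped through WT replicate 2, and KO replicate 1 was the lowest library. Thalamus KO replicate 3 had 26782 Aldoa reads, far above the 590 to 6812 of the other 23 libraries. Aldoc did not differ by genotype beyond the spread of its libraries: its average difference was 0.23 (95% interval -0.55 to 1.01, limma, adjusted p = 0.996), and -0.02 (95% interval -0.24 to 0.20, adjusted p = 0.991) without the 2 libraries with few genes. In the hippocampus, where Aldoc had 84243, 45015 and 79690 in KO and 84934, 78103 and 96180 in WT, the difference was -0.36 (SE 0.19, limma, adjusted p = 0.816). KO replicate 2 was the low library there, and it also had the lowest astrocyte marker sum of the region (47723 CPM, the others 72424 to 85466) and the highest ependymal and choroid plexus marker sum (55543 CPM, the others 58.0 to 12332); their part in the result was not tested. Tpi1, which interconverts the triose phosphates, was lower in each hippocampus KO library (299, 551 and 248) than in every WT library (742.5, 1216 and 1010), at -1.47 (SE 0.95, limma, adjusted p = 0.843).

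Lower glycolysis held 2 of the genes with the smallest spread between replicates, Gapdh and Pgam1. Gapdh, which oxidises the triose phosphate, had 5927 ± 1533 normalized reads in olfactory bulb KO and 5470 ± 654 in WT (SD, n = 3 each), and 7335 ± 766 and 9834 ± 4369 in hippocampus KO and WT. In the cortex it had 4672, 7508 and 7017 in KO and 11532, 9600 and 7693 in WT, so that every KO library was below every WT library, at -0.60 (SE 0.70, limma, adjusted p = 0.996). Pgk1, the first step that yields ATP, was in the hippocampus the only 1 of the 28 genes tested with every KO library above every WT library: 3443, 1794 and 2766 in KO against 1450, 1003 and 870 in WT. Its difference was 1.24 (SE 0.63, limma, adjusted p = 0.797), and 1.14 (SE 0.72, adjusted p = 0.998) with the WT pair averaged. Pkm, pyruvate kinase, was above every WT library in each cortex KO library (1633, 1711 and 2346 against 1540, 1307 and 287), at 1.15 (SE 1.44, limma, adjusted p = 0.996), and 0.40 (SE 0.76, adjusted p = 0.997) without WT replicate 3. Pgam1, phosphoglycerate mutase, ranged from 0 to 5173 in KO and from 779 to 3584 in WT. Values of this group carry a limit of annotation, since 50-base stretches of their transcripts also occur in other genes of the annotation, mostly processed copies. The share was 68.0% for Pgk1, 41.5% for Pgam1, 34.4% for Pkm and 27.2% for Gapdh, and counting could split such reads. Genes outside this group carry the limit too, with 27.0% for Ldhb, 16.6% for Ldha, 13.5% for Aldoa, 10.2% for Gpi1 and 7.51% for Tpi1.

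Eno1, the main enolase of most tissues, was listed at 0 to 135 normalized reads (median 36.7), while Eno1b, a gene with a near-identical sequence, had 0 to 4183 (median 2773). Eno1 shares 72.2% of its 50-base stretches with other genes, above all Eno1b, so the level of Eno1 is uncertain and only the pair can be read. Eno1 took 0.0400 to 5.35% of the reads of the pair in the 22 libraries that had any. Eno1b had 2993 ± 704 in olfactory bulb KO and 3133 ± 992 in WT, 2648 ± 928 and 2399 ± 687 in hippocampus KO and WT, and was at 0 in thalamus KO replicate 3 and cortex WT replicate 3. In the hippocampus Eno1 itself had 22.5, 13.8 and 22.7 in KO and 98.1, 37.1 and 42.6 in WT, without overlap. Eno2 was above 0 in 9 libraries, with at most 63.3 normalized reads.

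The lactate genes were led by Ldhb, the heart-type subunit. Of its 50-base stretches, 27.0% also occur in another gene of the annotation, so counting could split its reads. Ldhb had 2716, 739 and 59.4 normalized reads in thalamus KO libraries, against 4006, 4933 and 6907 in WT, and had the lowest unadjusted p of the 27 genes tested in that region. All 3 KO libraries were below all WT libraries, and below every library of the other regions except hippocampus KO replicate 2 (2245), which lay between them. The difference was -3.31 (SE 1.85, limma, adjusted p = 0.859), and -1.85 (SE 0.77, adjusted p = 0.922) without KO replicate 3, whose 59.4 normalized reads were 6 reads. The summed oligodendrocyte markers of the KO libraries were 2933, 28953 and 76162 CPM in the same order, against 6787 to 12324 CPM in WT; their part was not tested. In the other regions KO and WT overlapped, with 3530, 4243 and 5697 in olfactory bulb KO and 4175, 4295 and 3268 in WT, 3221, 2245 and 4682 in hippocampus KO and 4754, 4379 and 4843 in WT, and 4718, 4789 and 5186 in cortex KO and 5487, 6586 and 4444 in WT. Averaged over regions Ldhb differed by -0.95 (SE 0.60, limma, adjusted p = 0.971), and by -0.62 (SE 0.26, adjusted p = 0.761) without the 2 libraries with few genes.

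Ldha, the muscle-type subunit, ranged from 0 to 2351 normalized reads in KO and from 0 to 2000 in WT. In the hippocampus it had 784, 2031 and 1504 normalized reads in KO and 1962, 250 and 449 in WT, which overlapped, at 1.13 (SE 0.82, limma, adjusted p = 0.854), and 0.68 (SE 0.88, adjusted p = 0.998) with the WT pair averaged. Ldhb took 69.5% (hippocampus KO mean, SD 14.9) and 85.6% (WT mean, SD 12.9, n = 3 each) of the reads of the pair in that region. In the other regions the means were 83.0 ± 7.6% in olfactory bulb KO and 85.6 ± 5.0% in WT, and 79.9 ± 2.1% in cortex KO and 84.7 ± 13.8% in WT. Thalamus KO replicate 2 had the lowest share, 23.9%. The share of 100% in thalamus KO replicate 3 rested on 6 reads (95% Wilson interval 61.0 to 100%), and that interval covers counting error only.

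**Figure D3:**
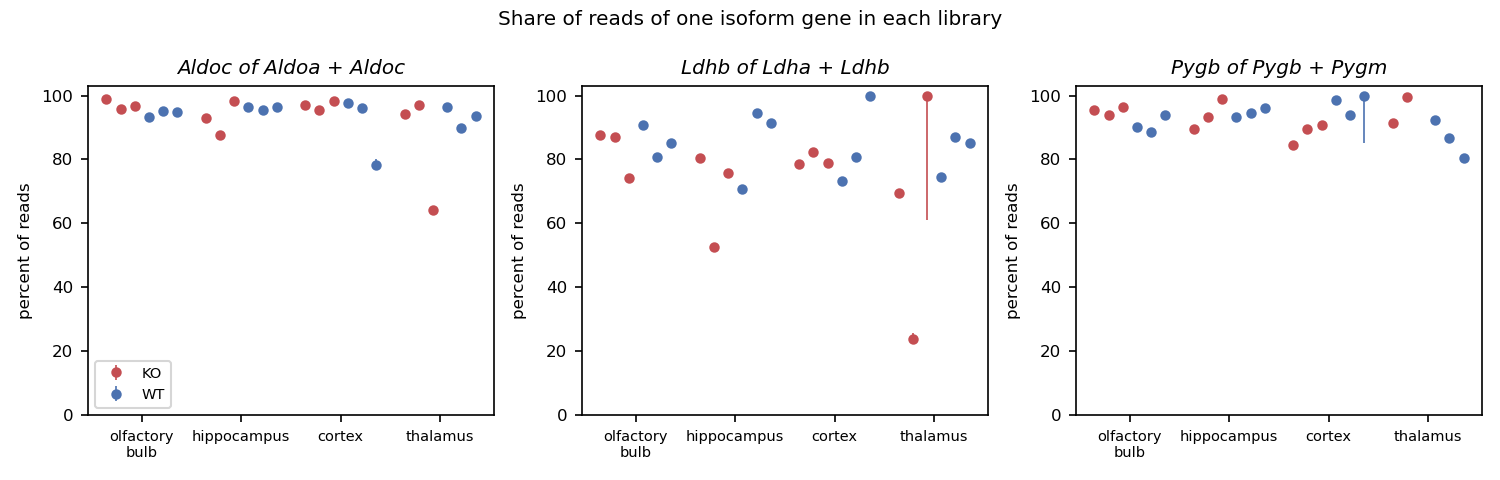
Share of Aldoc in the reads of Aldoa and Aldoc, of Ldhb in those of Ldha and Ldhb, and of Pygb in those of Pygb and Pygm, in percent per library, KO left of WT in each region, with 95% Wilson intervals. Aldoc took 87.8 to 98.8% in 22 libraries, 64.3% in thalamus KO replicate 3 and 78.4% in cortex WT replicate 3.

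Slc16a1 encodes MCT1, which carries lactate out of astrocytes, oligodendrocytes and endothelium. In the hippocampus it had 87.4, 398 and 58.3 normalized reads in KO and 428, 1442 and 640 in WT. Every KO library was below every WT library, and the difference was -2.42 (SE 1.21, limma, unadjusted p = 0.0497, adjusted p = 0.796). With the WT pair averaged it was -2.28 (SE 1.60, adjusted p = 0.998). The 5 endothelial markers (Cldn5, Pecam1, Flt1, Cdh5, Tek) summed to 1.58, 88.5 and 146 CPM in these KO libraries and to 52.1, 549 and 167 CPM in WT. The 8 oligodendrocyte markers summed to 1407, 7412 and 1526 CPM in these KO libraries and to 3081, 5151 and 3028 CPM in WT. The part of either cell type was not tested. In the other regions Slc16a1 spread widely within groups, with 96.3 to 3249 in cortex KO and 27.0 to 492 in WT, and 18.4 to 1370 in thalamus KO and 15.9 to 1138 in WT.

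Glycogen genes held the extreme genotype value of the list. Gys1, glycogen synthase of muscle and brain (chromosome 7, 45434844 to 45456619, plus strand, GRCm38), had 0, 0.773 and 10.9 normalized reads in cortex KO libraries (0, 1 and 13 reads), against 367, 1348 and 3514 in WT (612, 2219 and 929 reads). The groups were far apart, and the difference was -6.54 (SE 2.21, limma, unadjusted p = 0.0031, adjusted p = 0.996), or -5.77 (SE 2.08, adjusted p = 0.997) without WT replicate 3. DESeq2 on recovered reads called it at -8.70 (adjusted p = 0.0172), among 99 genes that it called in the cortex. edgeR called 9 genes there and not Gys1 (-8.24, adjusted p = 1.00).

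Gys1 was as uneven within other groups. It had 125, 187 and 32.1 in olfactory bulb KO against 16.1, 73.8 and 1610 in WT, and 78.4, 9.19 and 1093 in hippocampus KO against 0, 58.8 and 24.7 in WT. In the thalamus it had 5.47, 0 and 0 in KO against 0, 63.3 and 0.851 in WT, low in all but WT replicate 2. Single libraries of olfactory bulb WT (1610) and hippocampus KO (1093) thus reached levels like those of cortex WT. The KO minus WT difference varied most between regions for this gene (8.64 between hippocampus and cortex, limma F test of the interaction, unadjusted p = 0.0064, adjusted p = 0.939). The exons of Gys1 overlap Ruvbl2 on the opposite strand, and whether reads were counted by strand is not known from the sources used here. Ruvbl2 had 12.3, 20.9 and 3302 normalized reads in cortex KO and 28.8, 1094 and 0 in cortex WT. The part of Ruvbl2 reads in the values of Gys1 was not tested.

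**Figure D4:**
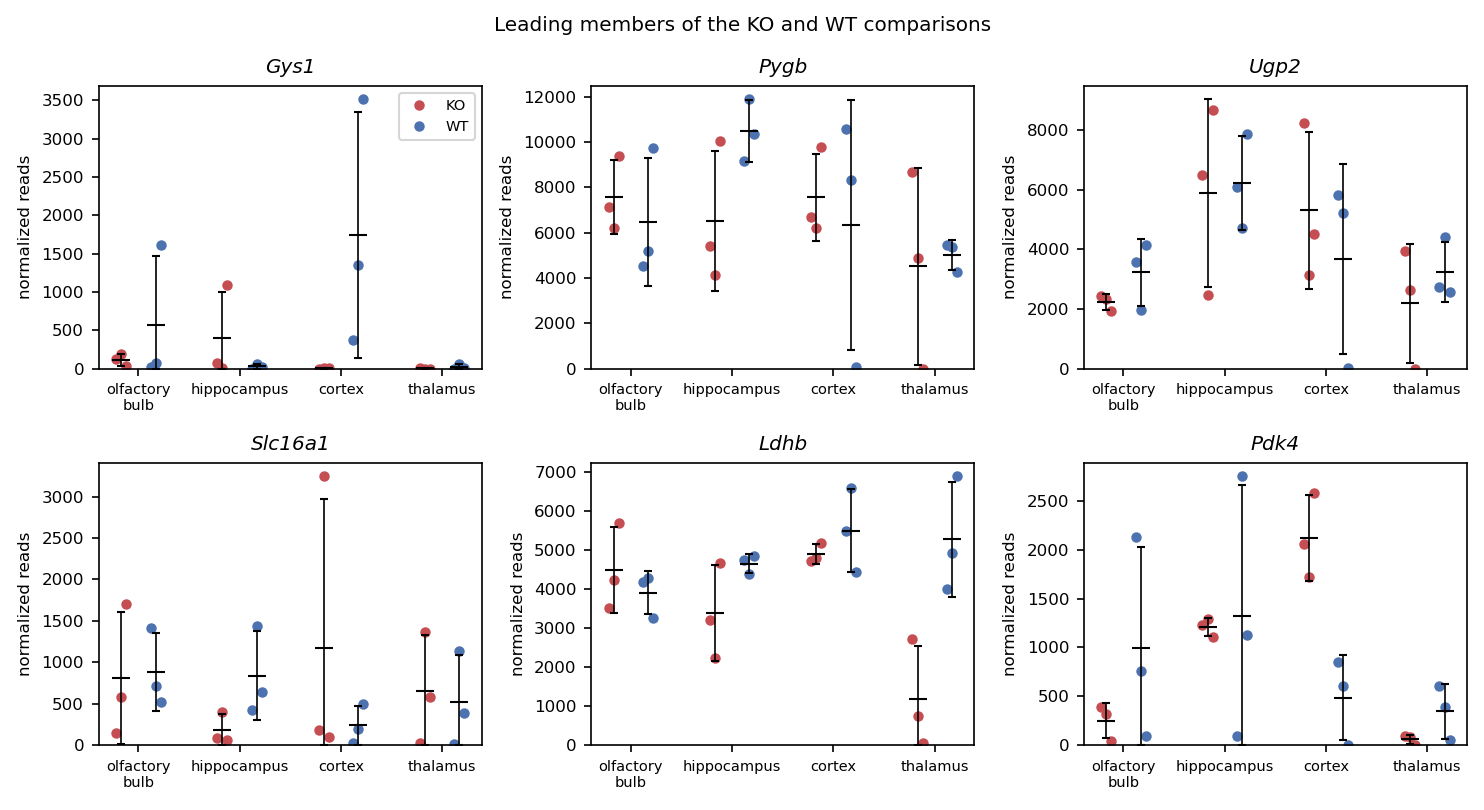
Normalized reads of Gys1, Pygb, Ugp2, Slc16a1, Ldhb and Pdk4 in every library, KO left of WT in each region, with points for libraries and bars for the mean and SD of 3 libraries, the lower bar cut at 0. Cortex Gys1 and thalamus Ldhb are higher in all WT than in all KO libraries, and the other groups shown overlap except hippocampus Slc16a1 and cortex Pdk4.

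Pygb, brain glycogen phosphorylase, and Pygm, the muscle form that astrocytes also hold, release glucose phosphate from glycogen. Pygb in the hippocampus had 5435, 4149 and 10032 normalized reads in KO and 9168, 11888 and 10382 in WT, with KO replicate 3 inside the WT range. It had the lowest unadjusted p of the 28 genes tested there, at -0.77 (SE 0.38, limma, unadjusted p = 0.0429, adjusted p = 0.761), and -0.73 (SE 0.46, adjusted p = 0.998) with the WT pair averaged. Without KO replicate 2 it was -0.50. In the cortex it had 6711, 6199 and 9779 in KO and 10580, 8309 and 83.2 in WT, and its difference of 1.88 (SE 0.92, limma, adjusted p = 0.996) became -0.34 (SE 0.42, adjusted p = 0.997) without WT replicate 3. In the thalamus it had 8665, 4881 and 0 in KO and 5442, 5382 and 4252 in WT, and -2.74 (SE 1.73, limma, adjusted p = 0.859) became 0.38 (SE 0.62, adjusted p = 0.988) without KO replicate 3. Pygb had 7572 ± 1625 in olfactory bulb KO and 6488 ± 2829 in WT (SD, n = 3 each), and it took 80.5 to 100% of the phosphorylase reads in the libraries that had any.

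The KO minus WT difference of Pygm had opposite signs in the olfactory bulb and the cortex. Each olfactory bulb KO library (342, 405 and 358) was below every WT library (489, 674 and 642.5), at -0.68 (SE 1.10, limma, adjusted p = 1.00), while each cortex KO library (1235, 714 and 978) was above every WT library (133, 538 and 0), at 3.38 (SE 2.19, limma, adjusted p = 0.996). Without cortex WT replicate 3 the cortex difference was 1.78 (SE 1.16, adjusted p = 0.997), and the cortex groups still did not overlap. Over all 4 regions the interaction had a range of 7.00 between cortex and thalamus (limma, unadjusted p = 0.0282, adjusted p = 0.939), and of 4.10 (unadjusted p = 0.154, adjusted p = 0.972) without the 2 libraries poor in genes. Ugp2, which makes the glucose donor for glycogen, had 8256, 3154 and 4511 in cortex KO and 5818, 5221 and 3.78 in WT, and its difference of 2.71 (SE 1.22, limma, adjusted p = 0.996) became -0.17 (SE 0.49, adjusted p = 0.997) without WT replicate 3. Gbe1, the branching enzyme, ranged from 0 to 2787 in KO and 0 to 1411 in WT libraries.

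Groups that did not overlap were thus Gpi1 and Pygm (lower in KO) in the olfactory bulb, Pgk1 (higher) and Slc16a1, Tpi1 and Eno1 (lower) in the hippocampus, Pdk4, Pygm, Pdk1 and Pkm (higher) and Gys1 and Gapdh (lower) in the cortex, and Ldhb, Pfkp and Pdhb (lower) in the thalamus. In the olfactory bulb this was 0 of 31 genes higher and 2 lower in KO, against 4.37% and 4.69% of all genes tested. The hippocampus had 1 of 28 higher and 3 lower, against 5.61% and 6.52%. The cortex had 4 of 28 higher and 2 lower, against 4.73% and 2.88%, and the thalamus 0 of 27 higher and 3 lower, against 1.21% and 9.97%.

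For the pyruvate dehydrogenase complex, whose subunits turn pyruvate into acetyl-CoA, the olfactory bulb comparison was led by Pdhb, the beta subunit of its first enzyme. Pdhb had 286, 373 and 4449 normalized reads in KO and 6.76, 474 and 571 in WT, which overlapped, at 2.25 (SE 1.23, limma, adjusted p = 1.00). KO replicate 3 was the high library and WT replicate 1 the low one, and the difference was 1.00 without the first and 0.59 without the second. In the thalamus Pdhb had 156, 125 and 0 in KO and 345, 296 and 1589 in WT, at -3.20 (SE 2.35, limma, adjusted p = 0.859), and -1.90 (SE 1.86, adjusted p = 0.956) without KO replicate 3. Pdha1, the alpha subunit, had 0 to 3410 in KO and 424 to 2465 in WT, and Dlat, the acetyltransferase core, 0 to 4319 in KO and 0 to 1505 in WT.

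The kinases that switch the complex off were no more settled. Pdk4, induced by fasting and fatty acid use in other tissues, had 2059, 1718 and 2587 in cortex KO and 855, 602 and 0 in WT, with every KO library above every WT library. The difference was 3.59 (SE 1.95, limma, adjusted p = 0.996), and 1.53 (SE 0.83, adjusted p = 0.997) without WT replicate 3. Pdk4 had 385, 318 and 42.8 in olfactory bulb KO against 2130, 762 and 91.6 in WT, 1235, 1288 and 1104 in hippocampus KO against 94.5, 2758 and 1129 in WT, and 90.2, 80.5 and 0 in thalamus KO against 601, 386 and 48.5 in WT. Pdk2, the most abundant kinase of the 3 per kilobase (614 normalized reads, against 171 for Pdk4 and 19.1 for Pdk1), had 5529, 3682 and 2343 in cortex KO and 4606, 2037 and 7.56 in WT, and its difference of 2.73 (SE 1.37, limma, adjusted p = 0.996) became 0.24 (SE 0.57, adjusted p = 0.997) without WT replicate 3. Pdk1, a HIF target, ranged from 0 to 1533 in KO and from 0 to 799 in WT.

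Between regions 2 of the 32 genes were called, Slc16a7 with all libraries and Aldoc when the 2 libraries poor in genes were left out. The comparison over the mean of both genotypes, and that of the KO libraries, were added after the data had been seen. Over both genotypes limma called 1 of the 31 genes tested, Slc16a7, where 1.40% of all 12477 genes were called; 2 had an unadjusted p under 0.05, against 10.3% of all. Within the 12 WT libraries 0 of 31 were called (0.252% of all genes called, 1 at an unadjusted p under 0.05 against 6.79% of all, and 0 called by edgeR or DESeq2, which called 1.94% and 1.41% of all genes), and within the 12 KO libraries 0 of 30 by limma and edgeR (0.0558%, 3 at an unadjusted limma p under 0.05 against 7.04%). edgeR called 0.482% of all genes there, and DESeq2 called 1.09%, Pdk4 among them.

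Slc16a7, or MCT2, a high-affinity monocarboxylate transporter known above all from neurons (chromosome 10, 125219270 to 125389465, minus strand, GRCm38), was found mainly in the olfactory bulb. It had 834, 240 and 463 normalized reads in olfactory bulb KO and 27.0, 180 and 676 in olfactory bulb WT. Elsewhere it was above 0 in 5 of 18 libraries: hippocampus WT replicates 2 (102) and 3 (34.0), cortex KO replicate 2 (36.3), and cortex WT replicates 1 (0.599, 1 read) and 3 (212, 56 reads). All 6 thalamus libraries were at 0. The olfactory bulb was higher than the thalamus by 4.81 (SE 1.07, limma, adjusted p = 0.0066), and than the hippocampus and cortex by 3.87 and 3.68 (SE 1.07 each, adjusted p = 0.0687 and 0.0868). These SEs pool the spread of all 8 groups. Hippocampus KO, thalamus KO and thalamus WT were at 0 in every library and had no spread, unlike the olfactory bulb groups. Of all genes, 1.12% were called against the thalamus, 0.705% against the hippocampus and 0.906% against the cortex. The range over the 4 regions passed (4.81, limma F test, adjusted p = 0.0190; edgeR 0.0196; DESeq2 0.0175). The call was lost when olfactory bulb WT replicate 2, WT replicate 3 or KO replicate 1 was left out (adjusted p = 0.0600, 0.110 and 0.0545). Without the 2 libraries with few genes it held (adjusted p = 0.0056), and the olfactory bulb was then higher than the hippocampus, cortex and thalamus (3.87, 4.42 and 4.81, limma, adjusted p = 0.0332, 0.0178 and 0.0066), where 1.45%, 1.31% and 1.89% of all genes were called. KO and WT of the olfactory bulb did not differ beyond their spread (1.46, SE 1.37, adjusted p = 1.00). The 8 neuron markers summed to 127 to 280 CPM in olfactory bulb libraries and to 6.60 to 1759 CPM elsewhere, and their part was not tested.

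Aldoc was lower in the olfactory bulb than in the other regions once the 2 libraries poor in genes were left out. It had 50675, 40328 and 46300 normalized reads in olfactory bulb KO and 55944, 33072 and 37293 in olfactory bulb WT, against 73124, 62496 and 105624 in cortex KO and 79218, 76776 and 6354 in cortex WT. The thalamus had 60300, 89105 and 48229 in KO and 82553, 61311 and 60058 in WT. Apart from cortex WT replicate 3 (6354), 2 of the libraries of the other regions lay inside the olfactory bulb range, hippocampus KO replicate 2 (45015) and thalamus KO replicate 3 (48229). With all libraries the region difference did not pass over both genotypes, in WT or in KO (limma, adjusted p = 0.831, 0.834 and 0.877). Without cortex WT replicate 3, Aldoc passed among the WT libraries (range 1.07 between hippocampus and olfactory bulb, limma, adjusted p = 0.000168), where 1.27% of 11047 genes were called. The olfactory bulb was then lower than the hippocampus by -1.07 (SE 0.17, adjusted p = 8.0e-05), than the cortex by -0.93 (SE 0.19, adjusted p = 0.0087) and than the thalamus by -0.71 (SE 0.17, adjusted p = 0.0194), comparisons in which 0.425%, 0.263% and 0.932% of all genes were called. These fits counted hippocampus WT replicates 2 and 3 as separate libraries. Averaging that pair was not combined with leaving out the libraries poor in genes, here or over both genotypes. Among the KO libraries without thalamus KO replicate 3 the same differences were -0.56, -0.78 and -0.69 (limma, adjusted p = 0.508, 0.0739 and 0.248), with 0.159%, 0.336% and 0.326% of all genes called, and 0.662% over the 4 regions. Over both genotypes without both libraries they were -0.81, -0.86 and -0.70 (SE 0.15, 0.16 and 0.16, limma, adjusted p = 0.000348, 0.000378 and 0.0054), where 2.87% of 12424 genes had a region difference that passed. The astrocyte marker sum, which leaves Aldoc out, was 32400 to 43662 CPM in the olfactory bulb and 47723 to 85466 CPM in the hippocampus. Cortex libraries without WT replicate 3 had 62179 to 82797 CPM, and thalamus libraries without KO replicate 3 had 26487 to 38806 CPM. The part of astrocyte content in the Aldoc difference was not tested.

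**Figure D5:**
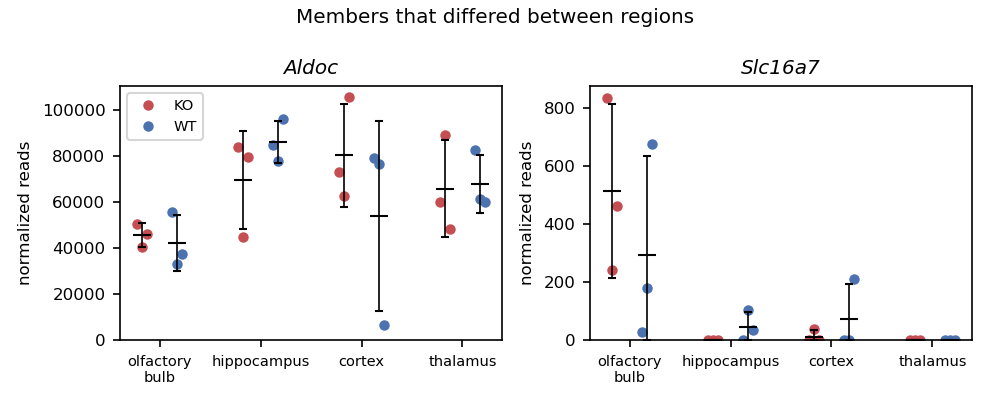
Normalized reads of Aldoc and Slc16a7 in every library by region, KO left of WT, with points for libraries and bars for the mean and SD of 3 libraries, the lower bar cut at 0. Slc16a7 reaches 834 in the olfactory bulb and is at 0 in all thalamus libraries, and Aldoc lies between 33072 and 55944 in the olfactory bulb and mostly above that range elsewhere.

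Among the KO libraries Pdk4 was highest in the cortex (1718 to 2587) and lowest in the thalamus (0 to 90.2), a range of 5.55 that limma did not call (adjusted p = 0.434, and 0.0975 without thalamus KO replicate 3) and that DESeq2 called (4.58, adjusted p = 0.0029). Gys1 had the lowest p between the WT regions (5.93 between cortex and thalamus, limma, adjusted p = 0.356), followed by Pdk1 (4.51 between thalamus and cortex, adjusted p = 0.744) and Slc16a7 (4.08 between olfactory bulb and thalamus, adjusted p = 0.774).

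Other genes of these pathways were likewise not called between KO and WT. The 87 listed genes covered other hexokinases, phosphofructokinase regulators, glucose and monocarboxylate transporters and glycogen regulators. They also covered the pentose phosphate pathway, gluconeogenesis and the glycerol phosphate and malate-aspartate shuttles. Of these, 53 were tested in the olfactory bulb and as many in the hippocampus, 49 in the cortex and 50 in the thalamus. In each region limma called 0, where it called 0%, 0.0109%, 0% and 0% of all genes. Of the listed genes 2, 4, 0 and 2 had an unadjusted limma p under 0.05, against 4.01%, 6.27%, 2.44% and 3.82% of all genes. The lowest p belonged to G6pdx, which opens the pentose phosphate pathway, in the olfactory bulb (2.32, SE 1.01, limma, adjusted p = 1.00), to Gpd1, a glycerol phosphate dehydrogenase, in the hippocampus (-3.20, SE 1.29, adjusted p = 0.698) and to Got1, an aspartate aminotransferase, in the thalamus (-4.93, SE 2.31, adjusted p = 0.859). Between regions over both genotypes 0 of 72 were called, against 1.40% of all genes. Without the 2 libraries with few genes Ppp1r3c, which targets protein phosphatase to glycogen, was called (range 2.61, limma, adjusted p = 0.0053). In that fit 2.87% of all genes were called. Ppp1r3c had 222 to 1425 normalized reads in olfactory bulb KO and 446 to 778 in WT, and 1887 to 5089 in hippocampus KO and 1943 to 8253 in WT.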

How the data were processed

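Bulk RNA-seq of sorted astrocytes was used, 24 libraries in 8 groups of region and genotype taken from the tissue and genotype labels. Per the labels' protocols, 10 ng of RNA entered the Revelo kit, and no molecular identifiers are mentioned. Tools named in the submitters' processing notes are STAR 2.5.0a, DESeq2 1.20.0 under R 3.5.2, and for quality control MultiQC 0.9 and FastQC 0.10.1, with build mm10. How reads were counted, with which annotation and whether by strand, is not given in the sources used here. Each entry of the deposited table is a signal, made by the authors by dividing read counts by a size factor, as the values show: 100% were whole multiples of the smallest value within 0.001 in every library. Of 24421 entries, 27 named as dates were left out (0.0738 to 0.255% of reads).

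limma 3.58.1 (R 4.3.3; lmFit, eBayes with trend and robust) was run on log2(value + 10), for genes at 10 or more in at least 3 libraries of a fit, with Benjamini-Hochberg adjustment over all genes tested and a threshold of 0.05. KO was compared with WT in each region and on average, the difference was compared between regions, and regions were compared within WT. Regions within KO and over both genotypes, and pairs of regions, were added after seeing the data. Alternatives were pseudocounts of 1 and 100, no filter, TMM, a replicate block, leaving out libraries and averaging hippocampus WT replicates 2 and 3. Further alternatives were edgeR 4.0.16 and DESeq2 1.42.0 on whole reads recovered in 22 columns. Thalamus WT replicate 1 and KO replicate 3, where a read was worth 0.993 and 9.90, were kept out of the edgeR and DESeq2 fits. Their values were whole multiples as well. The tests were checked on simulated counts. Their spread between replicates was fixed and not taken from these libraries. That check therefore does not show how the tests perform at the spread of these data. The genes, the lists and the rule for named genes (lowest p per comparison, and the isoenzyme sets) were chosen with earlier results of these data known. Positions, overlaps and shared 50-base stretches came from GENCODE vM21 on GRCm38, promoters from RefSeq. Wilson intervals and floors cover counting error only, while limma intervals and SEs reflect the spread among libraries.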

Additional observations from a re-analysis of the deposited data

Results flagged for a closer look

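Pygm had KO minus WT differences of opposite sign in the cortex and the olfactory bulb, and limma called it in neither. Every cortex KO library was above every WT library and every olfactory bulb KO library below every WT library. Of all genes tested, 4.73% were so separated in the cortex (higher in KO) and 4.69% in the olfactory bulb (lower in KO). The KO minus WT difference in the cortex minus that in the olfactory bulb was 4.07 on the log2 scale, and 2.47 without cortex WT replicate 3. That pair of regions was not tested on its own; the interaction over all 4 regions gave adjusted p = 0.939 in limma, and 0.972 without the 2 libraries with few detected genes. Cortex WT replicate 3, 1 of those libraries, had Pygm at 0.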

How the results depend on the processing

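Counts of genes called stayed within 1.5 times of the reported count in 184 recomputations and moved in 7. Values of named genes kept their direction and side of the threshold in 581, while 3 lost and 4 gained a call and 4 turned direction. The median difference of the list kept its sign in 81 recomputations and changed it in 5, to -0.11 without olfactory bulb KO replicate 3, -0.14 without olfactory bulb WT replicate 2, -0.10 without cortex WT replicate 3, and, on average over regions, 0.05 without thalamus KO replicate 3 and 0.03 by edgeR. DESeq2 called 1 of the 32 genes in the cortex (Gys1) and 1 between the KO regions (Pdk4), where limma called 0. Between the WT regions the count was 0 to 1 over the fits that left out a library, with 1 (Aldoc) without cortex WT replicate 3. Between regions over both genotypes it was 0 to 1 when a library was left out, with 0 without olfactory bulb WT replicate 2, WT replicate 3 or KO replicate 1, and 2 without the 2 libraries with few detected genes (Slc16a7 and Aldoc). The cause was not tested. Directions turned for Ugp2 in the cortex (-0.17 to 4.19 over the fits that left out a library, -0.17 without WT replicate 3) and for Pygb in the thalamus (-4.50 to 0.38 over such fits, 0.38 without KO replicate 3, 0.57 by edgeR and 0.56 by DESeq2, both of which lack that library). TMM factors moved the median of all genes by more than 0.1 in the cortex (0.65, against 0.49) and thalamus (-1.43, against -1.31); relative to it the list kept its side in both. With the replicate block limma called 0 of the 32 genes in each comparison of KO with WT and 1 between regions over both genotypes, as without it. Same-numbered libraries deviated together little (correlation of deviations -0.0973 to 0.223, median 0.0079, over 84 pairs). The 168 pairs with different numbers had -0.206 to 0.159. Such correlations cannot decide whether same-numbered libraries share an animal or a batch, and no label says so. Depth limited low genes most: 3 reads were 29.7 normalized reads in thalamus KO replicate 3, so genes listed at 0 there may lie below that level. Over all genes DESeq2 called 155, 508, 99 and 776 in the olfactory bulb, hippocampus, cortex and thalamus and 1154 on average, where limma called 0, 1, 0, 0 and 0. The DESeq2 fits of the thalamus and of the average lacked thalamus WT replicate 1 and KO replicate 3, which limma kept.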
